A study of Mus musculus with 18 samples.

Results

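The hepatic response to asparaginase was described in mice that lacked Gcn2, by comparing the livers of Gcn2-/- mice given asparaginase (ASNase) with those of Gcn2-/- mice given the excipient. A gene was a member when the authors' Cuffdiff run gave it a usable estimate in both groups and its expression passed 3 FPKM in at least 1 of them. FPKM counts sequenced fragments, scaled to the length of the transcript and the depth of the library. This rule took 9312 of the 37303 genes in the table, measured in 6 of the 18 mice. All mice were C57BL/6J. The Gcn2-/- mice carried a homozygous deletion of Gcn2 in every tissue, not in liver alone, and were given 8 daily intraperitoneal injections of ASNase at 3 IU per gram body weight or of phosphate buffered saline (PBS). Livers were collected 7.5 h after the last injection, per the labels, from mice of 8 to 16 weeks of age. Each Gcn2-/- group held 1 male and 2 females. The 4 groups used for comparison were WT and Atf4-/- mice, the latter also with a whole-body homozygous deletion, given the same ASNase or PBS injections. WT PBS held 1 male of 3 mice, and WT ASNase and both Atf4-/- groups held 2 males of 3. The table gives 1 value per group, estimated by the authors from its 3 mice together, so no spread between mice and no p-value can be stated, and each FPKM is given with the lower and upper bound of its Cuffdiff interval.

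Asparaginase is an enzyme drug used against acute lymphoblastic leukemia. It hydrolyses circulating asparagine and, less strongly, glutamine. The Eif2ak4 gene encodes GCN2, a protein kinase that binds uncharged tRNA when an amino acid runs short and then phosphorylates the initiation factor eIF2, which lowers general protein synthesis while it favors the translation of the transcription factor ATF4. ATF4 raises the transcription of genes for amino acid synthesis, amino acid transport and stress adaptation, and this chain from eIF2 to ATF4 is called the integrated stress response. Liver is a main source of plasma proteins and the main site of drug, bile acid and lipid metabolism, and inflammatory cytokines are known to turn hepatocytes to the secretion of acute phase proteins.

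The gene-level value of the deleted gene did not separate the strains. Eif2ak4 had 2.31 FPKM (interval 1.05 to 3.57) in Gcn2-/- PBS and 2.96 (1.07 to 4.85) in Gcn2-/- ASNase, beside 3.04 and 2.39 in the WT groups and 2.19 and 3.14 in the Atf4-/- groups. A value per gene counts reads over all exons, so it checks a deletion only where the deleted exons make up most of them. Atf4 mRNA was 60.04 FPKM in Gcn2-/- PBS and 68.1 in Gcn2-/- ASNase, a log2 difference of 0.18 that lay within the error of the values. Hepatocyte markers were high in both groups. The 10 markers with an estimate in both summed to 42552 FPKM in PBS and 15309 in ASNase, and to 28247 and 13951 without Fabp1. Their median log2 difference was -1.13 with 8 of 10 below 0 and none called, and its part in the falls of liver enzymes was not tested. Marker sums of skeletal muscle (10.8 and 12.9 FPKM), exocrine pancreas (10.6 and 5.47) and lung (1.92 and 1.95) were low in both Gcn2-/- groups. Adipose markers summed to 757 FPKM in PBS and 103 in ASNase, a sum carried by Car3, which liver also expresses, and the other 9 summed to 40.02 and 86.8, with Lep listed at 0 in both groups, Ucp1 at 0 in ASNase and Adipoq at 0.178 and 0.0338 FPKM. In other groups they were not all low. Muscle markers summed to 1061 and 1497 FPKM in WT PBS and WT ASNase, lung markers to 136 in WT PBS, and pancreatic markers to 405 in Atf4-/- ASNase; their part in the comparisons between strains was not tested.

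Of the 9312 genes, 94 were listed at 0 in 1 of the 2 groups and were left out of the folds, and 87 of those were short RNA classes, mainly small nucleolar RNAs. The other 9218 genes were compared as the difference of log2(FPKM + 0.1), ASNase minus PBS, which understates the folds of weakly expressed genes. Calls were made where this difference passed 1.5 in either direction, a 2.83-fold change, and the 2 Cuffdiff intervals did not overlap. By this rule 340 genes (3.69% of those compared) were called, 144 higher (1.56%) and 196 lower (2.13%) after ASNase. A further 267 genes passed the fold limit with overlapping intervals. The median log2 difference over all 9218 genes was 0.02, with -1.26 at the 5th percentile and 1.16 at the 95th. Of the 340, 303 were protein-coding.

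The expression filter and the calls themselves favor low PBS values among genes called higher and high PBS values among genes called lower, so the levels that follow are a description. Genes called higher had a median of 2.18 FPKM in PBS and 13.9 in ASNase, and 84 of the 144 were under 3 FPKM in PBS, so they passed the expression filter only through the ASNase group. Genes called lower had a median of 41.5 FPKM in PBS and 8.03 in ASNase. Of these, 55 of 196 (28.1%) were over 100 FPKM in PBS, beside 9.73% of all genes compared, and 61 were under 3 FPKM in ASNase. Changes over 8-fold were seen in 45 of the genes called higher and in 50 of those called lower. At the fold limit, Ddah1 fell from 47.3 to 16.3 FPKM and was called, while Gsto1, at 115 and 40.8 FPKM, and Jak3, at 2.5 and 7.22 FPKM, lay just outside. The predicted gene D930015E06Rik (4.86 and 1.64 FPKM) was the other one just inside.

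**Figure D1:**
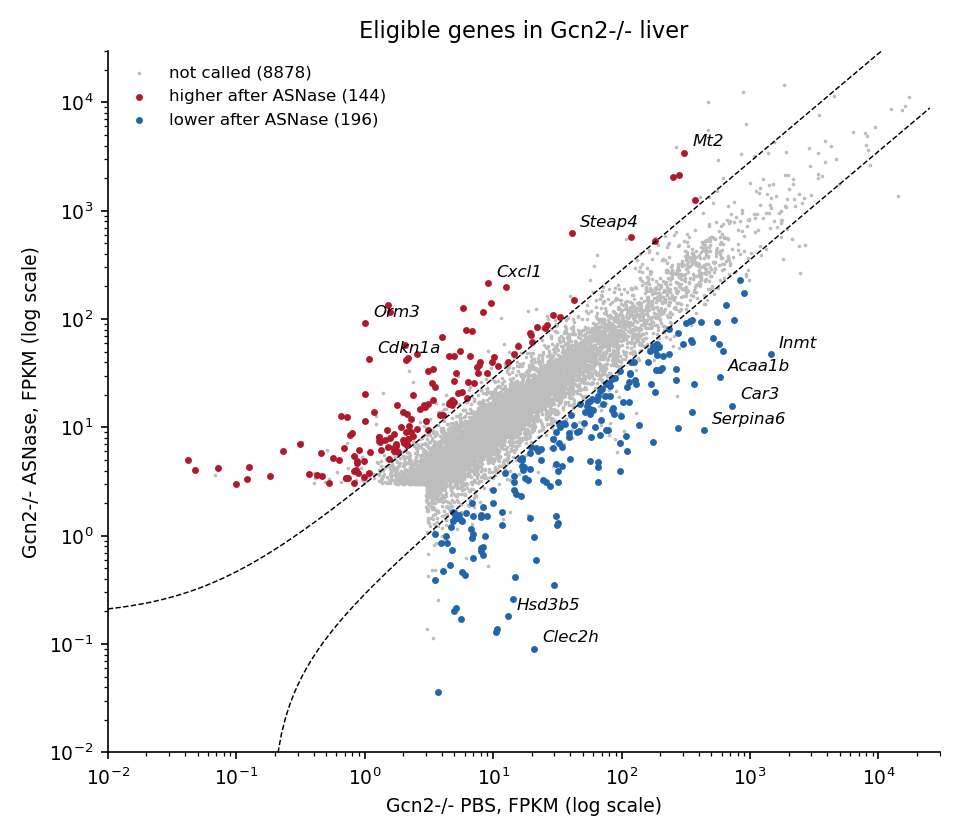
FPKM in Gcn2-/- ASNase livers (y axis) against Gcn2-/- PBS livers (x axis), both log scales, 1 point per gene; red points are the 144 genes called higher, blue points the 196 called lower, grey points the genes not called, and dashed lines the 2.83-fold limit. Red points lie mostly at low PBS values (median 2.18 FPKM) and blue points at higher ones (median 41.5 FPKM).

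The response was first read on the pathway in which GCN2 acts. Of 21 genes of the integrated stress response, 16 were compared, and their median log2 difference was 0.26, against 0.02 over all genes. Of the 16, 5 passed the expression filter only through the ASNase group and 2 only through the PBS group. The 2 members called higher and the 1 called lower, beside 1.56% and 2.13% of all genes, were among them. These calls thus rest on genes admitted by their own change, and the median does so in part. Fgf21, a hormone made by the fasting or amino acid-starved liver, was the 1 gene of this list that was called lower. The gene (ENSMUSG00000030827) lies at chr7:45613886-45615490 on the minus strand of GRCm38. It had 8.31 FPKM (3.05 to 13.6) in Gcn2-/- PBS and 0.782 (0 to 1.63) in Gcn2-/- ASNase, whereas it had 2.14 (0.434 to 3.85) and 29.3 (14.6 to 43.9) in the WT groups and 1.17 and 3.50 in the Atf4-/- groups. The intervals of the Gcn2-/- groups did not overlap, and the fall was 9.54-fold with a log2 difference of -3.25 ± 2.31 (the root of the summed squared interval half-widths). Its response in Gcn2-/- was different from that in WT by -6.97 ± 2.84 on the log2 scale.

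Several other genes known to respond to ATF4 were not called. Asns, asparagine synthetase, which is not in this list and makes the substrate of the drug, had 4.77 and 5.94 FPKM in Gcn2-/- PBS and ASNase, a log2 difference of 0.31 ± 3.50, beside 2.5 and 8.13 in WT and 0.591 and 20.1 in Atf4-/-. Its error in Gcn2-/- was wide enough to hold a large change in either direction. Trib3, a pseudokinase that binds ATF4, was 7.52 and 3.39 FPKM in Gcn2-/-, a log2 difference of -1.13 ± 1.16, beside 5.46 and 19.5 in WT and 3.63 and 150 in Atf4-/-. The Trib3 response in Gcn2-/- minus that in WT was -2.95 ± 1.52 on the log2 scale, and minus that in Atf4-/- it was -6.45 ± 1.73. Ddit3, which encodes the stress factor CHOP, was 9.87 and 15.1 FPKM in Gcn2-/- and 8.87 and 73.1 in Atf4-/-. Sesn2, an inhibitor of mTORC1 signaling, was 2.25 and 3.14 FPKM, and Chac1, which degrades glutathione, was 1.97 and 2.89 FPKM and passed no filter. The 2 members called higher were Cdkn1a and Ddit4, which are described with the growth arrest genes because p53 and glucocorticoids are known to raise them as well. In WT livers 2 genes of the list were called higher, and in Atf4-/- livers 8. Over all genes compared, 0.881% were called in WT and 7.37% in Atf4-/-, in either direction.

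Genes that charge tRNA, carry amino acids or serve translation held no calls. No member was called among 20 aminoacyl-tRNA synthetases (median log2 difference 0.40), 19 amino acid transporters (0.02) or 19 enzymes of asparagine, aspartate and glutamine metabolism (-0.29). None of 41 translation initiation factors (median 0.19) or 82 ribosomal proteins (0.07) was called either. The ribosomal protein genes had a median of 1.58 in Atf4-/- livers, where 30 of them were called higher. Of all genes compared in Atf4-/- livers, 7.37% were called in either direction. Nars, which charges tRNA with asparagine, had 41.8 FPKM (24.1 to 59.5) in PBS and 86.6 (45.3 to 128) in ASNase, with overlapping intervals. Serine and folate enzymes also had no call, although 10 of 12 lay below 0 with a median of -0.73, and in the methionine cycle list 2 of 16 were called lower (median -0.36). Slc38a4, an amino acid transporter abundant in hepatocytes, had 624 and 287 FPKM, again with overlapping intervals.

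For the lists that follow, counts of called members are set against the 1.56% of all genes called higher and the 2.13% called lower, and a list with 1 called member of 20 or more is given for its values alone. Members under 3 FPKM in 1 group passed the expression filter only through the other group. Counts and medians of lists with such members rest partly on genes admitted by their own change. List medians in WT and Atf4-/- livers are over the members that passed the filter in that strain.

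**Figure D2:**
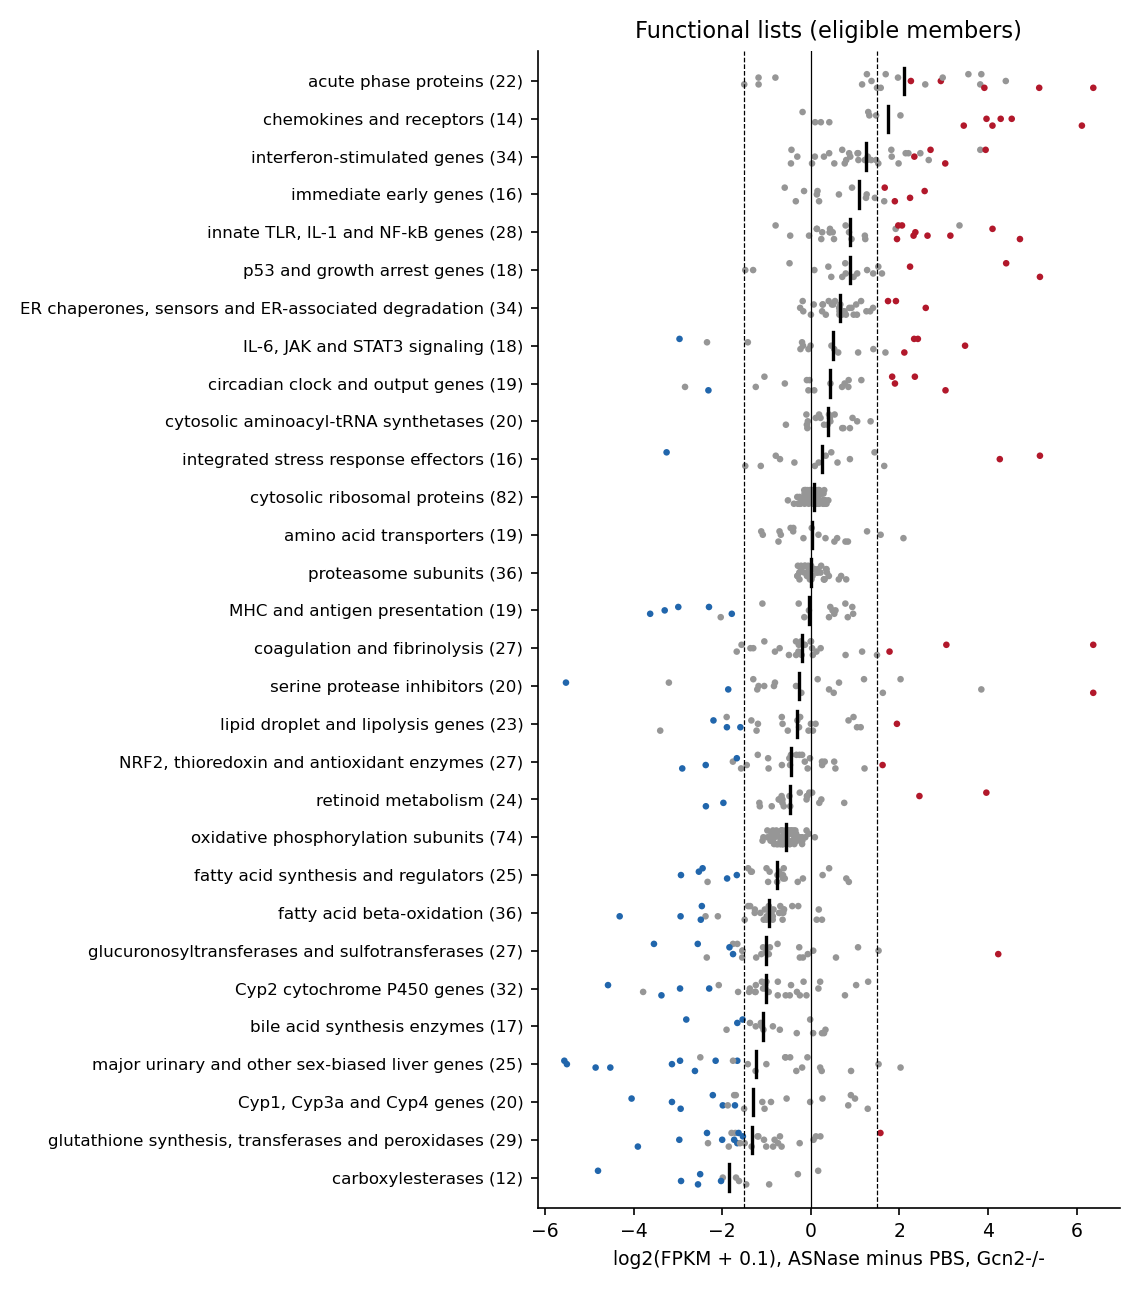
Log2(FPKM + 0.1) difference, Gcn2-/- ASNase minus PBS (x axis), for the members of each gene list (rows, from acute phase proteins at the top to carboxylesterases at the bottom); 1 point per gene, red called higher, blue called lower, grey not called, black bars the list median and dashed lines the limits of 1.5. The rows are lists chosen for holding several called members, with some that held none. Most inflammatory lists lie to the right of 0, but coagulation (median -0.20) and antigen presentation (-0.04) have medians below 0. Ribosomal proteins lie near 0 (median 0.07) and the detoxification lists to the left, with carboxylesterases at a median of -1.84.

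Several chemokine genes rose. Of 29 genes of the chemokine list 14 were compared, 6 were called higher and none lower, and the median log2 difference of the 14 was 1.75. Of the 6, 5 passed the expression filter only through the ASNase group, so that the count and the median rest on genes admitted by their own rise. Cxcl1, which draws neutrophils, had 9.15 FPKM (4.16 to 14.1) in Gcn2-/- PBS and 215 (101 to 328) in Gcn2-/- ASNase. It had 2.98 and 3.65 in WT and 17.8 and 642 in Atf4-/-. Both Gcn2-/- intervals stood apart, with a 23.2-fold rise, and the log2 response exceeded that of WT by 4.25 ± 1.97. Cxcl13, a B cell attractant, rose 69.6-fold from 1.56 FPKM (0.443 to 2.68) to 116 (56.3 to 175), and the WT groups had 2.45 and 0.958. Ccl2, the main attractant of monocytes, rose from 1.18 to 14.0 FPKM. Cxcl2, Ccl3 and Ccl7 rose from below 0.4 FPKM to between 3.35 and 6.98, so that their level stayed low.

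Receptors and early targets of innate signaling rose with them. Of 28 genes of the Toll-like receptor, interleukin-1 and NF-kB pathways, 9 were called higher and none lower, with a median of 0.89. Of the 9, 8 passed the filter only through the ASNase group. Cd14, the lipopolysaccharide co-receptor, rose 26.4-fold from 2.07 FPKM (0.756 to 3.38) to 57.1 (23.7 to 90.6), with 2.52 and 1.59 in WT and 3.05 and 82.6 in Atf4-/-. The Gcn2-/- and Atf4-/- livers were thus high after ASNase and the WT livers were not. Il1r1, the receptor of interleukin-1, rose from 6.88 FPKM (4.01 to 9.74) to 78.0 (35.2 to 121). Tnfaip3, an inhibitor of NF-kB that is itself an NF-kB target, rose from 0.652 to 12.8 FPKM, and Icam1, which leukocytes adhere to, from 4.999 to 45.2. Il1b, the cytokine itself, rose from 2.29 FPKM (0.680 to 3.91) to 11.9 (6.28 to 17.4), whereas Atf4-/- livers had 4.96 and 6.08. For Il1b the difference between the Gcn2-/- and Atf4-/- responses was 2.03 ± 1.94, just past its error.

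Promoter sequences were searched for all called genes, not only for these members. The 250 bases before the start site of each gene, from RefSeq on the GRCm38.p6 build, were available for 97 of the genes called higher, 124 called lower and 6525 of all 9218 genes. Both strands were searched for 10 short motifs. The NF-kB motif GGANTTTCC was found in 7 of the promoters of genes called higher (7.22%), 2 of those called lower (1.61%) and 71 of all (1.09%). A match describes letters only and is not a binding site. The matches in the genes called higher are printed here in capitals, within 60 bases read along each gene's own strand, since several of these genes are named above for their rise.
Cxcl1, chr5:90891149-90891208, plus strand: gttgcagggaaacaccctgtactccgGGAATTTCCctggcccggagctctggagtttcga
Cxcl2, chr5:90903777-90903836, plus strand: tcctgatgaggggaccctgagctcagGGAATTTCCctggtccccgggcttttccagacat
Icam1, chr9:21015761-21015820, plus strand: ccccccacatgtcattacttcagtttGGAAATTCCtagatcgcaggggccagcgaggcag
Tnfaip3, chr10:19015411-19015470, minus strand: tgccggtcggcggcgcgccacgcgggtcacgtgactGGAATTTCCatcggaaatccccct
Ier3, chr17:35821548-35821607, plus strand: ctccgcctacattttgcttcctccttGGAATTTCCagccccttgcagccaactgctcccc
Isg15, chr4:156200826-156200885, minus strand: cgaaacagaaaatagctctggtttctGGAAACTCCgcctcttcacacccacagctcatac
Alpk1, chr3:127780603-127780662, minus strand: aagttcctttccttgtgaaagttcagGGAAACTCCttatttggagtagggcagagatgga

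Cxcl1, Cxcl2, Tnfaip3 and Ier3 carried the same 9 letters, GGAATTTCC, at distances of 70, 96, 24 and 139 bases before the start site. The window of Tnfaip3 also holds the E-box CACGTG, which was found in 11 promoters called higher, 11 called lower and 8.996% of all. The antioxidant or AP-1 element TGACTCAGC was in 3 promoters called higher (3.09%), 0 called lower and 0.398% of all. The HNF1 motif GTTAATNAT was in 1 (1.03%), 3 (2.42%) and 0.690% of all, and the SREBP motif TCACNCCAC in 0, 3 (2.42%) and 1.09%. STAT, HNF4 and cAMP response element motifs were in at most 2 promoters called higher or lower, and in 1.03%, 0.444% and 2.85% of all. A C/EBP motif, TTGCNNAA, was present in 16 of the promoters of genes called higher (16.5%), 14 of those called lower (11.3%) and 7.91% of all. One of these was Steap4, at chr5:7960359-7960418 on the plus strand, which is shown for its large rise.
Steap4: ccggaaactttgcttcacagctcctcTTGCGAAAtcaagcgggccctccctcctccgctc
The core of the C/EBP-ATF element through which ATF4 is known to act, TGATGNAA, was found in 3 of the promoters called higher, 2 called lower and 130 of all (1.99%). The fallen Fgf21 and the raised Gadd45g both carried it in reverse, as TTGCATCA, at chr7:45615596-45615655 on the minus strand and chr13:51846548-51846607 on the plus strand.
Fgf21: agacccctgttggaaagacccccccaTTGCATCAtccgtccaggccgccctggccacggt
Gadd45g: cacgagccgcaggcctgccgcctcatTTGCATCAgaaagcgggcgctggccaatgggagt

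Acute phase genes were the list with the highest median among those named here, 2.12 over 22 genes, yet only 5 were called. All 5 rose (Orm3, Apcs, Saa4, A2m and Steap4), and 9 others were higher past the fold limit with overlapping intervals, in most cases wide ones. Orm3, an orosomucoid, rose 83.2-fold from 1.01 FPKM (0 to 2.03) to 92.1 (46.7 to 137), with 2.41 and 0.783 in WT and 10.9 and 111 in Atf4-/-. Apcs, the serum amyloid P component, rose from 278 to 2133 FPKM, and its response was 2.86 above that of WT on the log2 scale. Saa4 rose from 119 FPKM (63.9 to 174) to 571 (232 to 910), beside 129 and 86.9 in WT and 288 and 243 in Atf4-/-. In the other strains the Saa4 value was thus lower after ASNase than under PBS, but with overlapping intervals in both. Its response in Gcn2-/- was 2.51 ± 2.096 above that of Atf4-/- on the log2 scale. A2m, which inhibits proteases, rose from 0.0417 to 4.96 FPKM. Lcn2, an iron-siderophore binding protein named here after its values were seen, was 472 FPKM (13.4 to 931) in PBS and 9990 (0 to 21186) in ASNase, a 21.2-fold difference that was not called. Orosomucoid and serum amyloid genes are close copies of each other, so reads may be split between them.

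Several acute phase genes with high values in PBS could not be compared. Cuffdiff returned no estimate for 27 genes in 1 or both groups, with 18 in each group, all marked as having too much data at the locus. C3, Fgb, Hp, Hpx, Saa1 and Saa2 were among the 9 that lost their estimate in ASNase alone. In Gcn2-/- PBS these 6 had high values with wide intervals. Saa1 had 3784 FPKM (0 to 11306), Saa2 4273 (0 to 12331) and Hp, the haptoglobin gene, 3656 (0 to 8732). Hpx had 6024 (0 to 13996), Fgb 4043 (201 to 7885) and C3 3643 (0 to 14973). In WT PBS, Saa1 and Saa2 had 70.9 (39.3 to 103) and 56.9 (31.1 to 82.7). In Atf4-/- PBS they had 3622 (0 to 8547) and 3210 (0 to 7558). In Gcn2-/- ASNase these 6 were marked as having too much data, without a direction. Alb, the albumin gene, had no estimate in either group.

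Interleukin-6 and related cytokines are known to drive the acute phase response. Of 18 genes of the list for interleukin-6, JAK and STAT3 signaling, 4 were called higher and 1 lower, with a median of 0.50. Of the 4, Il1r1, described above, and Il1rn belong to interleukin-1 signaling. Socs3, the feedback inhibitor, rose from 4.93 to 26.8 FPKM, and Osmr, the oncostatin M receptor, from 0.714 to 3.42. Il1rn, the interleukin-1 receptor antagonist, rose from 7.94 to 40.5 FPKM, less than in Atf4-/- livers (4.10 and 136), and Il1r1 was the other riser. Outside this list, Cebpd, a transcription factor of the acute phase, rose from 3.35 to 25.6 FPKM. Steap4, a metalloreductase counted with the acute phase genes, rose 15.1-fold from 41.1 FPKM (23.02 to 59.2) to 624 (199 to 1048), with 31.8 and 27.6 in WT and 59.1 and 490 in Atf4-/-. Lifr, the receptor of leukemia inhibitory factor, went the other way. It fell 7.79-fold from 99.3 FPKM (38.5 to 160) to 12.7 (5.91 to 19.4), and had 88.7 and 52.0 in WT and 103 and 7.39 in Atf4-/-. The Lifr response was 2.19 ± 1.81 below that of WT on the log2 scale.

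Interferon-stimulated genes had list medians of opposite sign in Gcn2-/- and the other strains. In Gcn2-/- livers 4 of 34 were called higher and none lower, 9 more lay past the fold limit with overlapping intervals, and 31 lay above 0, with a median of 1.24. Of the 34, 8 passed the expression filter only through the ASNase group, among them 2 of the 4 called. The counts and the median thus rest partly on genes admitted by their own rise. Over all genes compared, 0.881% were called in WT and 7.37% in Atf4-/-, in either direction. The medians of the same list were -0.89 in WT, where 1 was called lower, and -1.35 in Atf4-/-, where 6 were called lower. Each median is over the members that passed the filter in its own strain, so the genes behind them are not all the same. Isg15, a ubiquitin-like protein induced by interferon, rose 15.4-fold from 12.6 FPKM (6.15 to 19.1) to 196 (65.3 to 327), but was 20.2 and 7.96 in WT and 12.6 and 4.78 in Atf4-/-. Only the Gcn2-/- ASNase group was high, and its response exceeded that of WT by 5.28 ± 1.84 and that of Atf4-/- by 5.32 ± 1.98 on the log2 scale. Gbp2, an interferon-induced GTPase, rose from 3.55 to 23.7 FPKM, with 4.78 and 2.13 in WT and 3.46 and 1.82 in Atf4-/-. Oasl2, of the oligoadenylate synthetase family, rose from 2.36 to 20.1 FPKM. Oas1a, which makes the oligoadenylates that activate RNase L, rose from 1.1 to 5.97 FPKM. These 4 were the genes of the list called in Gcn2-/- livers, and whether all 3 mice of the group shared the rise was not tested.

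**Figure D3:**
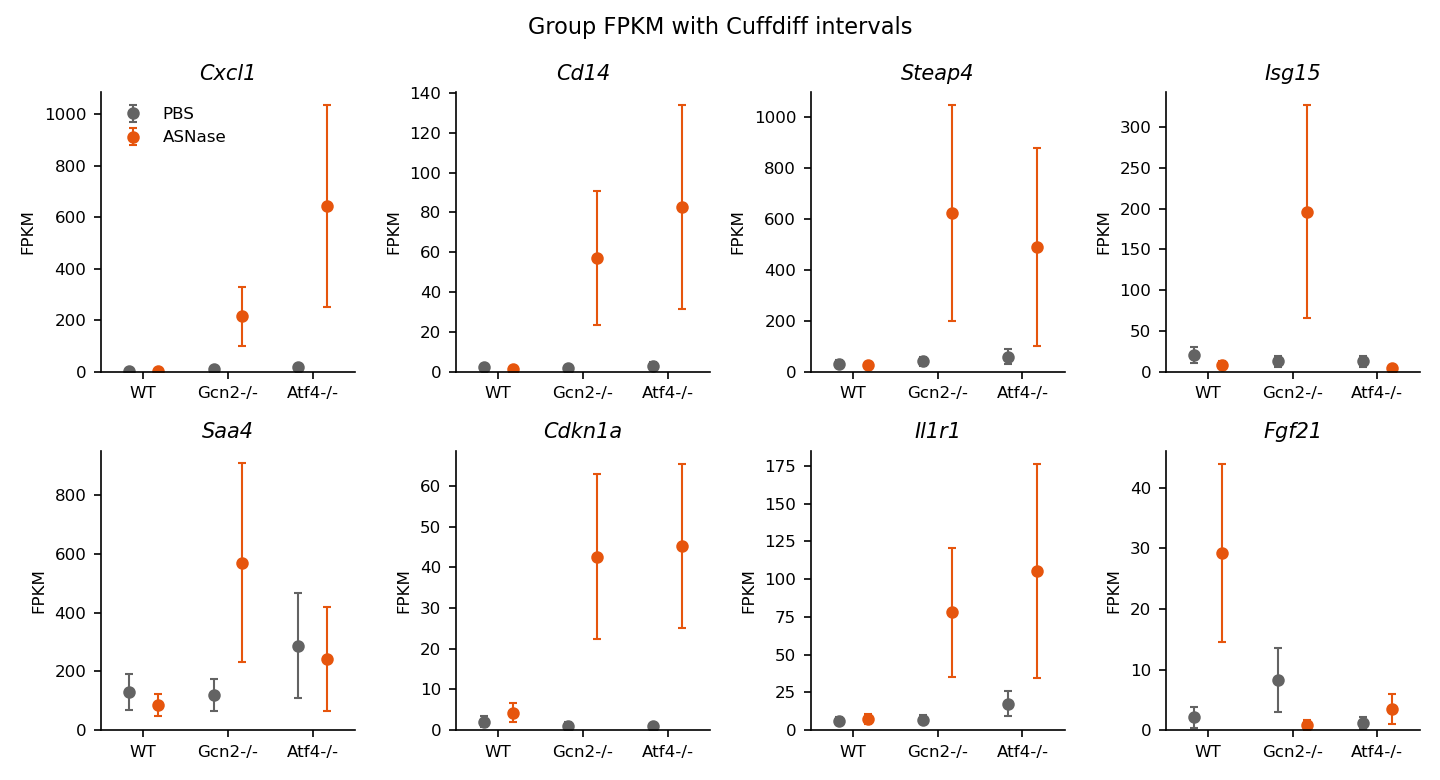
FPKM (y axis, linear scale from 0, set for each gene) of Cxcl1, Cd14, Steap4, Isg15, Saa4, Cdkn1a, Il1r1 and Fgf21 in the 6 groups, 1 point per group and bars for the Cuffdiff interval, with PBS in grey and ASNase in orange. Isg15 is high in Gcn2-/- ASNase alone (196 FPKM), Cxcl1 and Cd14 are high after ASNase in both deleted strains, and Fgf21 is high in WT ASNase and low in Gcn2-/- ASNase.

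In the coagulation list 16 of 27 genes lay below 0, with a median of -0.20, and none was called lower. Procr, the protein C receptor, rose from 0.692 to 6.51 FPKM, and Thbd, thrombomodulin, from 0.827 to 3.08. Mmp7, a matrix metalloproteinase, rose from 0.0478 to 4.06 FPKM, while Mmp15, of the same family, fell from 9.94 to 2.64. They were the 2 genes called of 22 in the collagen and matrix protease list (median -0.03). Chi3l1, a chitinase-like glycoprotein, rose from 2.58 to 47.8 FPKM. Neu3, a sialidase, rose from 0.232 to 6.02 FPKM, and Atp6v0a4, a proton pump subunit, from 0.0715 to 4.26. Marco, a scavenger receptor of macrophages, rose from 8.32 to 118 FPKM (62.4 to 173), with 5.69 and 3.45 in WT. Marco was the 1 member of 14 Kupffer cell markers that was called, and the summed level of those markers was 336 FPKM in PBS and 484 in ASNase. Without Marco the other 13 summed to 328 and 366.

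Growth arrest and early response genes rose as well. Cdkn1a, which encodes the cyclin kinase inhibitor p21, rose 36.1-fold from 1.08 FPKM (0.226 to 1.94) to 42.6 (22.3 to 62.8), beside 2.13 and 4.30 in WT and 0.928 and 45.2 in Atf4-/-. Ddit4, an mTORC1 inhibitor, rose 19.3-fold from 2.19 FPKM (0.852 to 3.53) to 44.0 (22.9 to 65.2), beside 8.15 and 14.1 in WT. After ASNase both were thus high in Gcn2-/- livers and not in WT. Gadd45g, a stress sensor of the growth arrest family, rose from 5.80 to 126 FPKM, and its log2 response was 4.72 above that of WT and 2.24 ± 1.55 above that of Atf4-/-. The p53 target list had 3 of 18 called higher (median 0.88), the immediate early list 4 of 16 (1.09), and no gene of 11 cell cycle genes was called (-0.30). In the p53 and immediate early lists, 4 genes each passed the expression filter only through the ASNase group. Among them were 1 of the 3 and 2 of the 4 called, so these counts and medians rest partly on genes admitted by their own rise. Jun, a subunit of AP-1, rose from 5.67 to 21.4 FPKM, and Ier3, an early response gene, from 1.30 to 8.24.

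Clock genes were called in both directions. All groups were collected at the same time after injection, so phase and level cannot be told apart. Arntl, the core activator, rose from 0.367 to 3.75 FPKM, Cry1 from 1.90 to 10.1, Per1 from 4.77 to 18.1 and Nfil3 from 7.11 to 25.7. Nr1d1, the repressor known as REV-ERBα, fell from 46.6 to 9.33 FPKM. These were the 5 genes called of 19 compared, with a list median of 0.44. Of the 4 called higher, 2 passed the expression filter only through the ASNase group.

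Chaperones and folding enzymes of the endoplasmic reticulum (ER) lay above 0 for the most part. Of 34 genes 31 lay above 0, with a median of 0.66, and 3 were called, all higher. The WT median of the same list was -0.25 and the Atf4-/- median 0.83. Sdf2l1, an ER chaperone partner, rose from 21.98 to 83.7 FPKM, whereas WT had 25.0 and 11.2, and the response differed from WT by 3.08. Creld2 rose from 26.2 to 87.9 FPKM, and Derl3, of the ER degradation machinery, from 2.13 to 13.4. Hspa5, the main ER chaperone BiP, was 305 and 530 FPKM and was not called. Cytosolic heat shock proteins (median 0.00 over 16 genes) and proteasome subunits (0.01 over 36) held no called gene.

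Among the genes that fell, the liver's detoxification enzymes made up the largest set of lists. Carboxylesterases, which cleave drug esters and lipids, had the lowest median of any functional list shown, -1.84 over 12 genes, with 11 below 0 and 5 called lower. Ces1f fell 27.9-fold from 277 FPKM (112 to 443) to 9.85 (4.62 to 15.1), beside 272 and 217 in WT and 240 and 0.984 in Atf4-/-. Ces3b fell from 264 to 34.6 FPKM and Ces3a from 553 to 94.7. Carboxylesterase genes are close copies of one another, so that single values are uncertain where reads match more than 1 of them.

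Cytochrome P450 genes and conjugating enzymes were called almost always lower. Of 32 genes of the Cyp2 families 27 were below 0 and 4 were called lower (median -1.01), and of 20 genes of the Cyp1, Cyp3a and Cyp4 families 6 were called lower (median -1.30). No gene of either list was called higher. Cyp2a4 fell from 756 to 97.7 FPKM, Cyp2c69 from 176 to 7.28, and Cyp1a2, the caffeine-metabolizing enzyme, from 159 to 40.1. Glutathione transferases and related genes gave 8 called lower and 1 higher of 29, with 25 below 0 and a median of -1.33. Gstm1 fell from 891 FPKM (378 to 1403) to 176 (95.8 to 256), with 1124 and 1070 in WT. Gsta2 fell from 65.9 to 4.31 FPKM, and Gclc, the rate-limiting enzyme of glutathione synthesis, from 68.0 to 21.5. Among 27 glucuronosyltransferases and sulfotransferases 4 were called lower and 1 higher. The gene called higher was Sult1e1, the estrogen sulfotransferase, with 2.11 FPKM in PBS and 41.5 in ASNase. Genes of these P450 and glutathione families are also close copies of one another.

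In lipid metabolism, falls were called among oxidation, desaturation, ketone body and lipid droplet genes. Of 36 beta-oxidation genes 33 were below 0, with 4 called lower and a median of -0.93. Acaa1b, a peroxisomal thiolase, fell 19.9-fold from 584 FPKM (239 to 929) to 29.3 (14.8 to 43.8), beside 627 and 541 in WT and 277 and 1.55 in Atf4-/-. Ehhadh, the peroxisomal bifunctional enzyme, fell from 190 to 33.9 FPKM. Fads2, the delta-6 desaturase of polyunsaturated fatty acids, fell 7.62-fold from 513 FPKM (228 to 797) to 67.2 (33.2 to 101), with 302 and 378 in WT, and its response was 3.26 below that of WT on the log2 scale. Fads1 fell from 274 to 74.0 FPKM, Elovl2 from 353 to 61.3 and Elovl5 from 184 to 33.8, and these 4 genes together elongate and desaturate long-chain fatty acids. Me1, which supplies NADPH for lipid synthesis, was the fifth of 25 genes called lower, from 54.7 to 17.1 FPKM. Bdh1, an enzyme of ketone bodies, fell from 211 to 45.3 FPKM. The lipid droplet and lipolysis list had 3 of 23 called lower and 1 higher, with a median of -0.30. Fabp5 fell from 127 to 27.7 FPKM, Fabp2 from 117 to 31.5 and G0s2, an inhibitor of lipolysis, from 75.7 to 25.1, and Fabp4 rose from 19.3 to 74.8. Fabp1, the main fatty acid carrier of hepatocytes, was 14306 and 1358 FPKM with overlapping intervals and was not called.

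Cholesterol and bile acid genes did not behave as 1 group. The 26 cholesterol synthesis genes had a median of 0.17 in Gcn2-/- livers with 1 called lower, Sc5d, from 352 to 97.9 FPKM, whereas the median was -1.84 in Atf4-/- livers with 12 called lower. Of all genes compared in Atf4-/- livers, 7.37% were called in either direction. Of 17 bile acid genes 3 were called lower in Gcn2-/- livers, with a median of -1.07. Cyp8b1, the sterol 12-alpha-hydroxylase that sets the share of cholic acid, fell from 58.2 to 8.22 FPKM. Cyp7b1, of the alternative pathway, fell from 16.2 to 5.06, and Nr0b2, the repressor SHP, from 32.3 to 11.1. Cyp7a1, the rate-limiting enzyme of the classical pathway, was 75.8 and 35.3 FPKM with wide intervals. Of 23 apolipoprotein genes, none was called (median -0.32).

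Amino acid breakdown was lower in direction but seldom past the limit. Of 41 genes of this list 35 were below 0 with a median of -0.77, and 2 were called lower. Agxt, the alanine-glyoxylate aminotransferase, fell from 416 to 94.3 FPKM, and Amdhd1, of histidine breakdown, from 117 to 39.9. Otc, the urea cycle enzyme that makes citrulline, fell from 339 to 96.5 FPKM and was the 1 gene called of 8 in the urea cycle, whose median was 0.24. Cps1, its first enzyme, was 754 and 779 FPKM. Gamt, which makes creatine, fell from 183 to 21.3 FPKM. Tat, the tyrosine aminotransferase, was 613 FPKM (202 to 1024) and 1987 (0 to 4100) and was not called.

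Sex-biased genes, many of which depend on growth hormone, gave 9 falls. Of 25 genes with a known sex bias in mouse liver 9 were called lower and none higher, with a median of -1.25. Of the 9, 5 passed the expression filter only through the PBS group. In WT, 1 of 3 mice was male under PBS and 2 of 3 under ASNase, so sex and treatment cannot be fully told apart there. Both Gcn2-/- groups held 1 male of 3 by their labels. Ddx3y, a Y-linked gene present in males only, had 6.20 and 5.88 FPKM, close to each other. Hsd3b5, a male-biased steroid dehydrogenase, fell from 13.1 to 0.180 FPKM, beside 44.3 and 55.2 in WT and 105 and 0.167 in Atf4-/-. Slco1a1, a male-biased organic anion uptake carrier, fell from 32.1 to 1.30 FPKM, beside 103 and 106 in WT and 124 and 0.945 in Atf4-/-. Under PBS both genes had lower values in Gcn2-/- than in WT livers, with overlapping intervals. Genes known as female-biased also fell, among them A1bg, from 62.1 to 10.1 FPKM. Igfbp2, an insulin-like growth factor binding protein, fell from 654 to 135 FPKM and Igfals, the acid-labile subunit that carries the factor in plasma, from 64.3 to 17.7. Igf1 itself was 630 and 322 FPKM and was not called.

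The largest falls by single genes crossed these groups. Serpina6 (ENSMUSG00000060807, chr12:103646630-103657212, minus strand, GRCm38) encodes the plasma carrier of corticosteroids. It fell 46.0-fold from 436 FPKM (211 to 661) to 9.37 (4.74 to 14.0), beside 224 and 271 in WT and 229 and 25.1 in Atf4-/-. Its response was 5.80 ± 1.74 below that of WT and 2.34 ± 1.70 below that of Atf4-/- on the log2 scale. Inmt, a methyltransferase of indole amines, fell 30.4-fold from 1446 FPKM (489 to 2403) to 47.5 (26.5 to 68.5), with 1001 and 786 in WT. Car3, a carbonic anhydrase that is also among the adipose markers above, fell from 717 to 15.9 FPKM in Gcn2-/- and from 640 to 2.15 in Atf4-/-, with 1730 and 1161 in WT. Clec2h, a C-type lectin, fell from 20.9 to 0.0906 FPKM, the largest log2 fall among the named genes at -6.78. Cib3, a calcium-binding protein, fell from 29.97 to 0.353 FPKM, Hao2, a hydroxyacid oxidase, from 10.6 to 0.137, and Mup2, a major urinary protein with many close copies, from 14.8 to 0.416. Hnf4a, the factor that holds the hepatocyte program, was 149 and 145 FPKM, a log2 difference of -0.03. Of 24 liver transcription factors 2 were called higher and none lower, and 12 lay below 0. Of those 12, 1 was past the fold limit with overlapping intervals, at a log2 difference of -2.84.

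**Figure D4:**
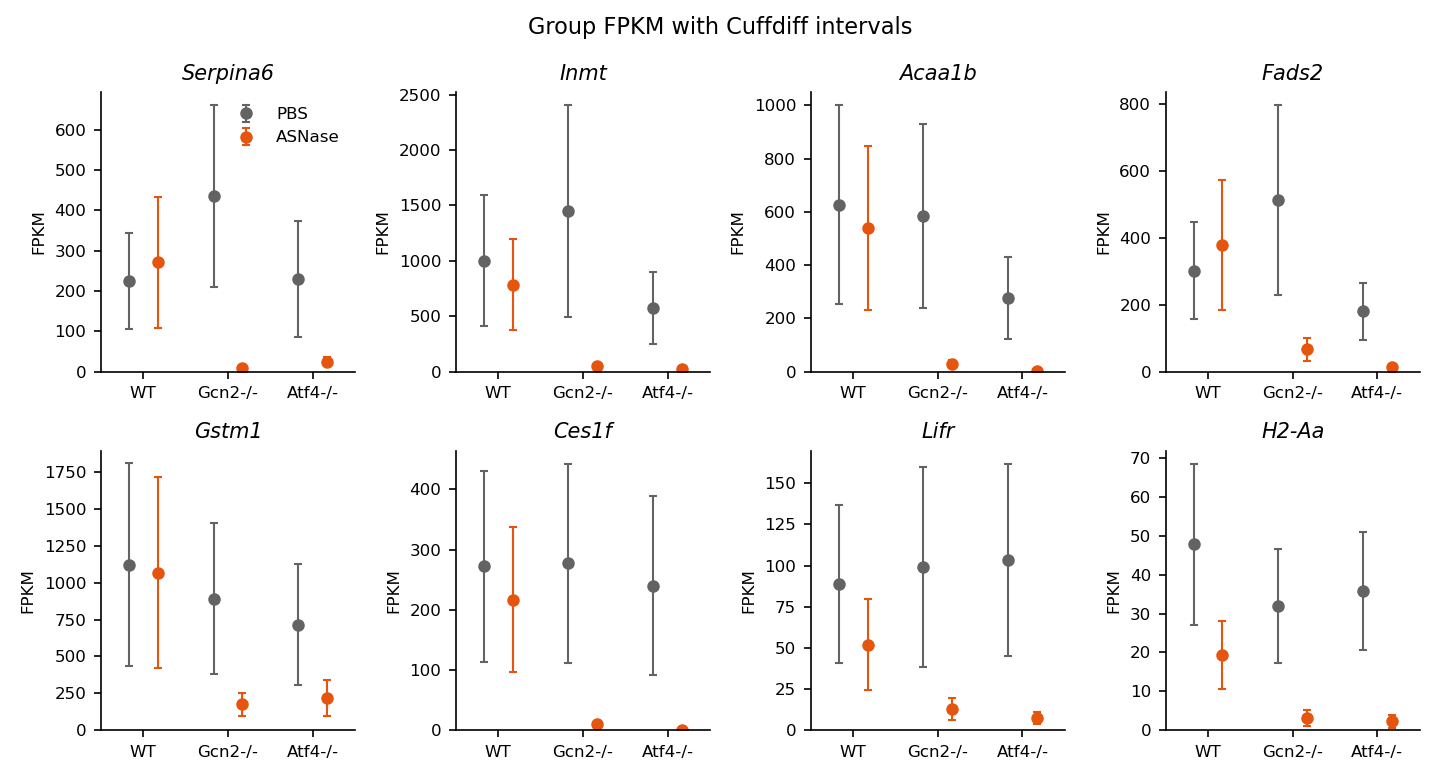
FPKM (y axis, linear scale from 0, set for each gene) of Serpina6, Inmt, Acaa1b, Fads2, Gstm1, Ces1f, Lifr and H2-Aa in the 6 groups, 1 point per group and bars for the Cuffdiff interval, with PBS in grey and ASNase in orange. In both deleted strains the ASNase point lies below the PBS point for each gene, and for Serpina6 the Gcn2-/- ASNase group is the lowest (9.37 FPKM, against 25.1 in Atf4-/- ASNase).

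Genes that mark red blood cells and lymphoid cells were also among those that fell. Hbb-b1 and Hba-a1, adult globins, fell from 66.0 to 3.15 and from 31.3 to 1.24 FPKM, as did Hbb-b2 and Hba-a2, and 4 of 5 erythroid markers compared were called lower, with a median of -4.55. Of the 5, 3 passed the expression filter only through the PBS group, all 3 of them among the 4 called. The count and the median thus rest partly on genes admitted by their high PBS value. The summed level of the 8 erythroid markers was 164 FPKM in PBS and 14.1 in ASNase, where Slc4a1, the red cell anion exchanger, was listed at 0. Globin genes are close copies, so their single values are uncertain. B cell markers summed to 26.1 and 6.71 FPKM, and Ighm, the heavy chain of immunoglobulin M, fell from 7.03 to 0.630. Class II histocompatibility genes fell as well, and 5 of 19 antigen presentation genes were called lower, 4 of class II (H2-Aa, H2-Ab1, H2-Eb1 and Cd74) and H2-Q1. Of the 19, 3 passed the filter only through the PBS group, among them 2 of the 5 called. H2-Aa fell 9.82-fold from 32.0 FPKM (17.3 to 46.6) to 3.16 (1.13 to 5.198), beside 47.8 and 19.2 in WT and 35.9 and 2.25 in Atf4-/-. Its response was 1.99 ± 1.6 below that of WT on the log2 scale. Cd74, the invariant chain, fell from 54.0 to 15.6 FPKM, while the class I gene H2-K1 was 835 and 813. In bulk liver, fewer cells of a type and less RNA per cell cannot be told apart.

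Neutrophil and T cell markers were low in both groups. The 12 neutrophil markers summed to 12.96 FPKM in PBS and 4.16 in ASNase, with 4 of them (Ly6g, Mpo, Ngp and Retnlg) listed at 0 after ASNase, and S100a9 fell from 5.63 to 0.171. Sums of T and natural killer cell markers were 5.88 and 2.25 FPKM. The rise of the neutrophil attractant Cxcl1 was thus not accompanied by higher neutrophil marker levels in these libraries. Monocyte markers summed to 74.9 and 89.8 FPKM, endothelial markers to 136 and 140, cholangiocyte markers to 44.2 and 40.1 and stellate cell markers to 156 and 114. The part of each in the changes above was not tested.

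Metal and retinoid genes gave smaller groups. Mt2, a metallothionein that binds zinc, rose in every strain, from 306 to 3444 FPKM in Gcn2-/-, from 27.0 to 300.4 in WT and from 721 to 5518 in Atf4-/-, with log2 differences of 3.49, 3.47 and 2.94. It was 1 of 2 genes called the same way in all 3 strains, together with the transcript 9030619P08Rik. Hmox1, heme oxygenase 1, rose from 13.03 to 40.3 FPKM. Cyp26a1, which degrades retinoic acid, rose from 1.30 to 7.54 FPKM in Gcn2-/- livers, while it was 15.7 and 3.97 in WT. Of 74 oxidative phosphorylation genes none was called, though 73 lay below 0, with a median of -0.56.

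Set against the other strains, the response in Gcn2-/- livers was larger in number than in WT and smaller than in Atf4-/-. The same rule called 80 genes in WT (0.881% of 9084) and 699 in Atf4-/- (7.37% of 9485). The 3 comparisons share no mice. Across the 8650 genes compared in both, the log2 responses of Gcn2-/- and WT livers had a Pearson r of -0.04 and a Spearman rho of 0.05, and across 8911 genes those of Gcn2-/- and Atf4-/- had 0.65 and 0.60. Genes are not independent replicates, and these values describe the tables only.

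By genes, 198 of the 340 called in Gcn2-/- were called in the same direction in Atf4-/- (58.2% of the Gcn2-/- calls and 28.3% of the Atf4-/- calls), and 4 in WT (1.18% and 5% respectively). Of the 144 that rose 61 were called higher in Atf4-/-, and of the 196 that fell 137 were called lower. In WT 12 of the 340 were called in the opposite direction, and in Atf4-/- 5. A further 126, of which 79 rose, were called in neither other strain. Being called in 1 strain and not in another does not show a difference, so the difference of responses was taken with its own error. A response differed when the difference of the 2 log2 changes passed 1.5 and also exceeded the combined error of the 4 values behind it. By that measure 335 of 8650 genes (3.87%) differed between Gcn2-/- and WT, 135 with the Gcn2-/- response higher and 200 lower. The WT groups also differed in their number of males, and the part of sex in this count was not tested. Between Gcn2-/- and Atf4-/- 300 of 8911 (3.37%) differed, 192 higher and 108 lower.

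Within the 340 genes, which the Gcn2-/- comparison itself had picked, 264 could be compared with WT and 203 differed. Picking genes by a large change in Gcn2-/- favors a larger change there than in the other strains. The counts and medians by direction that follow are thus a description. For 299 comparable with Atf4-/- 73 differed, and 58 genes differed from both. The genes that fell were lower still in Atf4-/- livers, with a median log2 change of -2.87 there and -2.27 in Gcn2-/-, whereas the genes that rose had 1.90 and 2.33. Among the 49 fallen genes whose responses differed, the Gcn2-/- response was the higher (a smaller fall) in 30 and the lower in 19. A1bg, Acaa1b, Car3, Hsd3b5 and Cyp4a12a were examples of a deeper fall in Atf4-/-, and Serpina6 of a deeper fall in Gcn2-/-. Among 24 risen genes that differed the Gcn2-/- response was higher in 22, Isg15, Gbp2, Gadd45g, Saa4 and Orm3 among them. The panels by gene show these patterns for Isg15 and Serpina6.

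**Figure D5:**
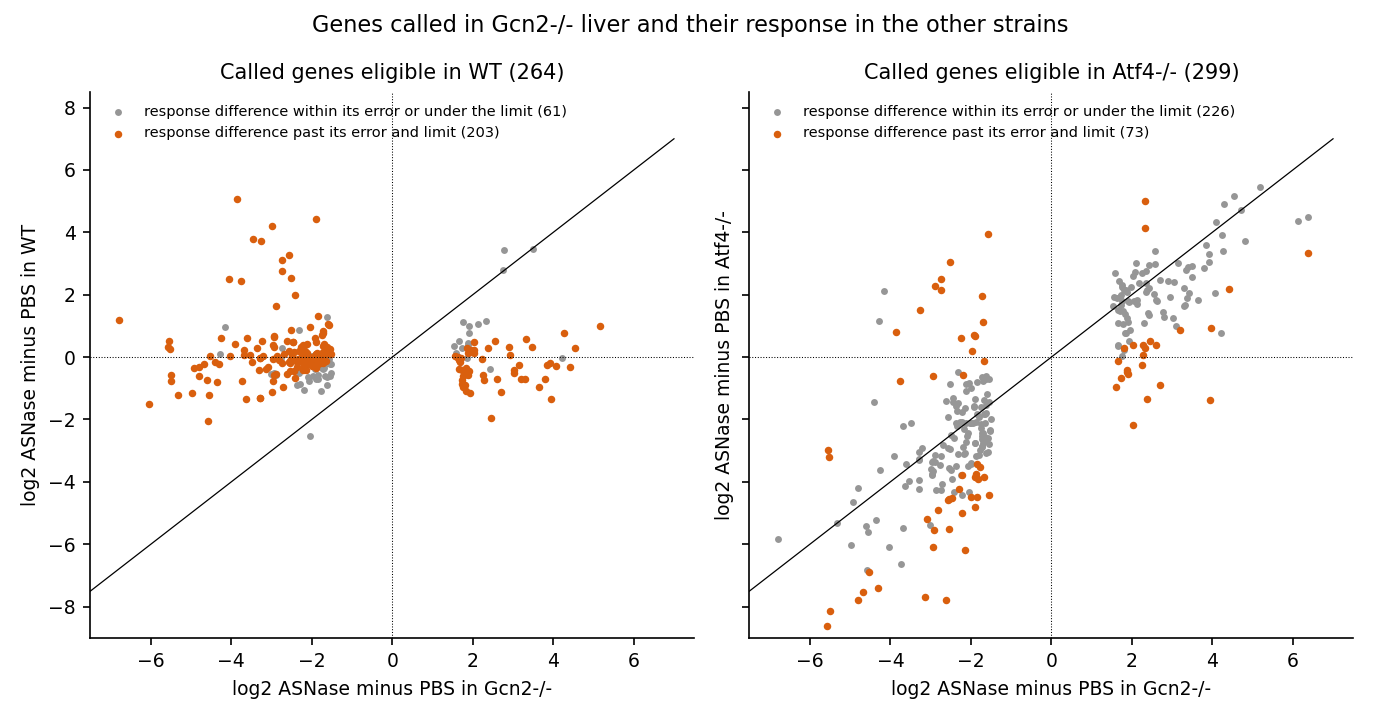
Log2(FPKM + 0.1) response to ASNase in Gcn2-/- livers (x axis) against that in WT (left, 264 genes) and Atf4-/- livers (right, 299 genes), 1 point per gene called in Gcn2-/-, with the line of equal response drawn. WT responses lie around 0 and 203 of 264 genes differ past the error, while Atf4-/- responses follow the line for most genes and 73 of 299 differ. The genes were picked by their Gcn2-/- response, which favors such differences.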

How the data were processed

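RNA-Seq of poly-A libraries from liver of 18 mice was analysed as deposited by the authors. They aligned reads with TopHat to mm10 and estimated expression with Cuffdiff, per the submitters' processing notes. The deposited table holds FPKM values, 1 per gene and group of 3 mice, with the lower and upper bound of Cuffdiff's interval in the same unit and a status. Groups came from the sample labels, and all value columns were mapped. Values of single mice, raw counts and the authors' own test results were not used here. The depth per library is unknown from the table, and precision was taken from the intervals, whose median half-width was 51.3% of the value in Gcn2-/- PBS and 52.5% in Gcn2-/- ASNase.

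Genes with status OK and above 0 in both groups and FPKM over 3 in either were compared as log2(FPKM + 0.1). A call required a difference over 1.5 and separate intervals. The combined error of a difference is the root of the summed squared half-widths on the log2 scale. No test between groups was run, since each group has 1 value. Genes were read by 58 functional and 14 cell type marker lists holding 1676 genes, and 144 of the 340 called genes were in a list. Genes were named from the 15 largest rises and falls of protein-coding genes other than predicted ones, up to 5 called members or, where few were called, up to 3 abundant members of each list, Eif2ak4 and Atf4, up to 8 whose response differed most from each other strain, those next to the fold limit, and the integrated stress response list. Asns, Il1b, Ccl2, Gclc, Lcn2, Cyp7a1, Hspa5, H2-K1, Ddx3y, Alpk1, the genes without an estimate and those called in opposite directions between strains were named after their values were seen. A result on 1 further gene is not reported here. The members and lists were chosen with earlier results of these data known. Settings tried were other pseudocounts, expression filters, fold limits and interval rules, centring, and protein-coding genes alone. Positions and biotypes came from GENCODE M21 and promoters from RefSeq (GRCm38.p6). Computation used Python 3.11.15, pandas 2.3.3 and numpy 2.4.6. The comparison and its calls were tried on simulated data, with changes larger than the fold limit in well expressed genes only. Their behavior near the fold limit or in weakly expressed genes was not tested.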

Additional observations from a re-analysis of the deposited data

Results flagged for a closer look

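Responses to ASNase that were called in opposite directions in Gcn2-/- and another strain are given here as differences of log2 responses, Gcn2-/- minus the other strain. No replicate test of these differences was possible, since the table has 1 value per group. Against WT, Fgf21 differed by -6.97, Krt23, a keratin, by -6.56, Rgs16, a regulator of G protein signaling, by -6.19, Rhod, a small GTPase, by -5.83, Dsg1c, a desmoglein, by -4.41 and Cyp26a1 by 4.41. Rgs16 was 65.7 and 4.75 FPKM in Gcn2-/- and 17.8 and 95.9 in WT, and Rhod was 103 and 17.3 in Gcn2-/- and 14.1 and 137 in WT. Against Atf4-/-, Akr1b7, an aldo-keto reductase, differed by -5.20, Fads3 by -3.66 and the transcript 1810011O10Rik by 4.19. Short or predicted RNAs gave the others. Against WT, 7SK differed by -5.51, U3 by -5.84, SNORD94 by -6.32, Snora74a by -7.24, AC120136.1 by -7.18 and AC165349.6 by -8.94, and against Atf4-/- 7SK differed by -5.24 and AC027184.1 by -5.59. The libraries were selected for poly-A RNA, which these short transcripts mostly lack. The part of that selection in their values was not tested.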

How the results depend on the processing

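The 340 calls in Gcn2-/- livers were recomputed under other settings, and no named gene that was called changed direction. Requiring FPKM over 10 left 83 genes called higher and 218 whose response differed from WT. With no filter on low FPKM, 568 differed from WT and 451 from Atf4-/-. The fold limit alone, without separate intervals, called 607 genes, 278 higher and 329 lower. The other settings moved the counts by less than 1.5 times, among them the 423 calls with genes listed at 0 included, a setting chosen after seeing the data. All 70 list medians kept their sign under a pseudocount of 1. When centred on the median of all genes, 2 changed sign, those of the proteasome subunits and the liver transcription factors, both of which were 0.01 in the values reported. Of the named genes 8 lost their call under a pseudocount of 1. Because each group has 1 value, leaving out each mouse in turn could not be run. No paired analysis was possible because the table holds 1 pooled value per group. The width of the intervals limits the calls to large changes, and the acute phase genes without an estimate stay outside every count.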

Other observations

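Genes in none of the lists made up 196 of the 340 calls. Gabarapl1, an autophagy adaptor of the ATG8 family, fell from 349 to 64.6 FPKM in Gcn2-/- livers and was the 1 gene called of 33 autophagy and lysosome genes, whose median was -0.06. Abcd2, a peroxisomal fatty acid transporter, fell from 27.8 to 2.90 FPKM and was the 1 gene called of 24 ABC transporters. Called genes lay on all autosomes, from 2.52% of the genes compared on chromosome 11 to 5.90% on chromosome 19, and 0.851% of those on the X chromosome were called.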
